A study of Mus musculus with 12 samples.

Results

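Immunoglobulin gene segments are the pieces from which antibody genes are assembled, and the 136 described here were measured by RNA sequencing of mouse hyperplastic mammary glands. They were chosen from a table of 54532 genes, which lists 264 genes annotated as immunoglobulin constant (C), diversity (D), joining (J) or variable (V) segments. A segment was a member when its FPKM, the fragments assigned to it relative to its length and to the depth of the library, was above 0 in at least 4 of the 12 libraries. The members comprise 12 of the 13 C segments, 1 of 19 D segments, 10 of 14 J segments and 113 of 218 V segments. By locus, 51 lie in the heavy chain locus Igh on chromosome 12, 78 in the kappa light chain locus Igk on chromosome 6, and 7 in the lambda light chain locus Igl on chromosome 16. Of the remaining segments, 70 were at 0 in all 12 libraries and 58 were above 0 in 1 to 3 of them.

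The rule selects on detection, so detection itself is no result. The 14 members just inside it, with values above 0 in exactly 4 libraries, held 16 to 58 counts over all libraries, with a median of 24.5. The 15 segments just outside, above 0 in exactly 3 libraries, held 3 to 34 counts, with a median of 7. All 14 segments inside and 14 of the 15 outside had most of their counts in Stat3 ko libraries.

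An antibody joins 2 heavy and 2 light chains, and each chain carries a variable region fused to a constant region. In developing B cells a V, a J and, for the heavy chain, a D segment are recombined, and the junction is kept by all descendants of that cell. Naive B cells transcribe the first heavy chain constant segments, Ighm and Ighd, from one transcript by alternative splicing. Class switching then places an IgG, IgE or IgA segment behind the same V region, and plasma cells, the antibody secreting descendants, hold very large amounts of the resulting transcripts. The mammary gland is a site of IgA plasma cells, whose antibody is carried into milk by the polymeric immunoglobulin receptor.

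The 12 libraries came from female FVB/N mice of the MIC model, whose mammary epithelium makes polyoma middle T, a viral oncogene, and Cre recombinase when doxycycline is given. The 3 groups of 4 libraries are MIC mice labelled WT, Stat3 ko or Chi3l1 ko. Stat3 encodes a transcription factor and Chi3l1 a secreted chitinase-like protein. All groups, WT included, carried the MIC transgene and received doxycycline at 2 mg/ml in the drinking water, and the titles carry 2 wk. The labels give neither the promoter, the alleles nor the age of the mice, and they do not say whether a group's 4 samples are separate animals. The p-values therefore measure only the spread between these samples.

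The libraries held 16217143 to 22607123 gene counts. Stat3 was at 12.2 to 18.7 FPKM in Stat3 ko and 46.2 to 53.3 FPKM elsewhere. Chil1, the mouse symbol of Chi3l1, was at 0 to 0.0323 FPKM in Chi3l1 ko, 107 to 212 FPKM in WT and 4.92 to 17.6 FPKM in Stat3 ko. Epcam, which marks the epithelium of the labelled tissue, was present in every library at 154 to 621 FPKM. In all, 3 Stat3 ko libraries stood apart from the rest in their cell markers. The summed FPKM of 14 B cell markers was 588 in Stat3 ko 2 and 214 in Stat3 ko 3 against 9.32 to 22 in the other 10, and the 7 measured lymph node and follicle genes summed to 327 and 172 against 10.8 to 24.7. Stat3 ko 1 instead held the highest adipocyte marker sum, 4182 FPKM against 35.8 to 547 elsewhere, and the highest mitochondrial share of counts, 4.79%. In such bulk samples, fewer cells of a type and less RNA per cell cannot be told apart. The calls and the main differences that involve Stat3 ko are given below with and without Stat3 ko 2 and 3 where the fit without them could test the gene.

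The J segments are shown first because they are short enough to print whole and most carry a motif typical of J segments. All are the sense strand, 5′ to 3′, from GENCODE M21 transcripts on GRCm38. Capitals mark the J motif, searched on both strands as 4 codons in a row: a tryptophan codon (heavy chain) or the phenylalanine codon TTC (light chains), a glycine codon, any codon and a glycine codon.
Ighj1: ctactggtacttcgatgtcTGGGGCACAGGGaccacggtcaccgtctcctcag
Ighj2: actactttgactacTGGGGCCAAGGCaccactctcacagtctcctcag
Ighj3: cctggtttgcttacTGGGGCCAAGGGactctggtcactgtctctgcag
Ighj4: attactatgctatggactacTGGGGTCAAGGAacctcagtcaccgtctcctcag
Igkj1: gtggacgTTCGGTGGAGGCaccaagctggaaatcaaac
Igkj2: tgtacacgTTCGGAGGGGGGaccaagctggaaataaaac
Igkj3: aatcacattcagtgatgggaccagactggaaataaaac
Igkj4: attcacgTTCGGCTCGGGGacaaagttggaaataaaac
Igkj5: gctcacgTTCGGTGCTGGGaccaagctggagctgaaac
These lie at chr12:113429781-113429833, chr12:113429468-113429515, chr12:113429085-113429132 and chr12:113428514-113428567 on the minus strand, and at chr6:70722562-70722599, chr6:70722916-70722954, chr6:70723223-70723260, chr6:70723548-70723585 and chr6:70723886-70723923 on the plus strand, in the order printed. The heavy motif was present in 4 of the 4 annotated heavy chain J segments and the light motif in 8 of 10 light chain J segments. On either strand they occurred in 2% and 0.51% of the first 54 bases of 58785 coding transcripts. Igkj3 and the lambda segment Iglj3p did not hold the letters searched for. No printed segment held its motif on the other strand.

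The end of a V segment is where it meets the D or J segment. The last 60 bases are shown for the V segments on which the usage and the genotype comparisons turn. Capitals mark the cysteine codon conserved near the end of V segments, found as a tyrosine codon, a tyrosine or phenylalanine codon and a cysteine codon in a row. That pattern was present in 109 of the 113 V members and, on either strand, in 0.39% of the first 60 bases of 58781 coding transcripts.
Ighv1-81: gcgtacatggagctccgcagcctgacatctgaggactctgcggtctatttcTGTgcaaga
Ighv1-50: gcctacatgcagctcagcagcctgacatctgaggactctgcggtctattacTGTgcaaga
Ighv8-12: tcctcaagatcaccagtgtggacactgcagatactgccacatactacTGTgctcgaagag
Igkv9-120: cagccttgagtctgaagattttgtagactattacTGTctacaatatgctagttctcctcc
Igkv14-111: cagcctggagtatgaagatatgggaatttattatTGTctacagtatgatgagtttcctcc
Igkv17-127: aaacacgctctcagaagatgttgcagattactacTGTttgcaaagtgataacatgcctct
Igkv17-121: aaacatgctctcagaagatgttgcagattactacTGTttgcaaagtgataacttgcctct
Igkv1-117: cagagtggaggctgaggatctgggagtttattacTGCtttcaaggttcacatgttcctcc
Igkv1-110: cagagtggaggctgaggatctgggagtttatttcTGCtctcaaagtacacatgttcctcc
The stretches lie at chr12:115920279-115920338, chr12:115119748-115119807 and chr12:115647945-115648004 on the minus strand, and at chr6:68050397-68050456, chr6:68256810-68256869, chr6:67861600-67861659, chr6:68037259-68037318, chr6:68121768-68121827 and chr6:68271208-68271267 on the plus strand. Igkv17-127 and Igkv17-121 are 97.49% identical over the annotated segment, and Igkv1-117 and Igkv1-110 are 96.78% identical. In all, 29 of the 113 V members have another V segment at 95% identity or more. How the counting divided reads among such copies is not given in the sources used here, so values of single V segments with a near copy are uncertain. The reference is the C57BL/6J genome and the mice were FVB/N. The part of strain differences in the V values was not tested.

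Immunoglobulin members together took 0.0213%, 0.115%, 0.0242% and 0.0111% of all gene counts in WT 1 to 4. In Stat3 ko 1 to 4 they took 0.235%, 0.404%, 0.184% and 0.0192%, and in Chi3l1 ko 1 to 4 they took 0.0156%, 0.0133%, 0.00820% and 0.0441%. The first 3 Stat3 ko libraries were thus above all 8 libraries of the other groups, while Stat3 ko 4 lay within the range of both, and WT 2 stood above the other WT libraries. The mean ± SD (n = 4 each) was 0.0428% ± 0.0482 in WT, 0.211% ± 0.158 with Stat3 ko and 0.0203% ± 0.0162 with Chi3l1 ko, and without Stat3 ko 2 and 3 the Stat3 ko mean was 0.127%. Without WT 2 the WT mean was 0.0189%, and without Chi3l1 ko 4 the Chi3l1 ko mean was 0.0124%.

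**Figure D1:**
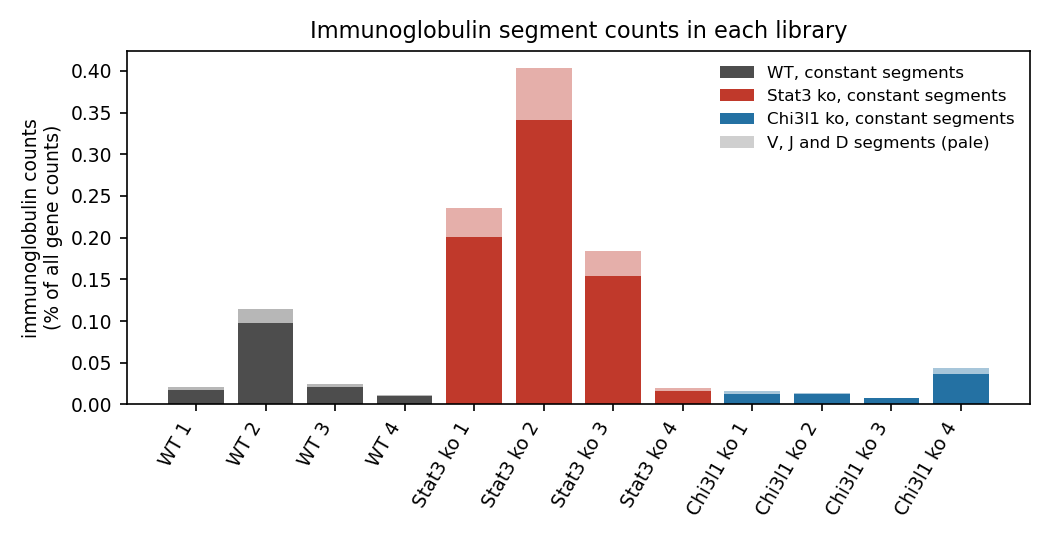
Immunoglobulin counts as a percentage of all gene counts (y axis, from 0) in each of the 12 libraries (x axis). The full-colour part of each bar is the constant segments and the pale part the V, J and D segments. Stat3 ko 1 to 3 reach 0.184% to 0.404%, and Stat3 ko 4, at 0.0192%, is as low as the WT and Chi3l1 ko libraries.

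Most of these counts were in constant segments, which are longer than the other classes. C segments held 80.7% to 91.6% of immunoglobulin counts per library, V segments 7.49% to 18.7%, and J segments 0.152% to 0.874%. One count was worth 0.134 to 0.200 FPKM in a V-sized gene of 300 bases and 0.958 to 1.43 FPKM in a J-sized gene of 42 bases, so low FPKM values of J segments stand for very few counts. Over all libraries, 60 of the 136 members held under 100 counts, 52 of them V segments, and 15 held at least 1000. The highest FPKM was in a Stat3 ko library for 121 of the 136 members, split into 31 in Stat3 ko 1, 69 in Stat3 ko 2, 19 in Stat3 ko 3 and the rest in Stat3 ko 4. Stat3 ko 2 and 3 together held over 50% of the counts of 74 members.

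The heavy chain constant segments lie in the order Ighm, Ighd, Ighg3, Ighg1, Ighg2b, Ighg2c, Ighe and Igha, from chr12:113418558-113422730 to chr12:113254830-113260236, all on the minus strand. Ighm encodes the constant region of IgM, the first class made by every B cell. Its level was 7.95, 16.7, 13.2 and 9.34 FPKM in WT 1 to 4. In Stat3 ko 1 to 4 it was 42.8, 245, 130 and 30.1 FPKM, and in Chi3l1 ko 1 to 4 it was 8.64, 28.6, 11.1 and 9.66 FPKM. Every Stat3 ko library was above every library of the other 2 groups, though Stat3 ko 4 and Chi3l1 ko 2 nearly met.

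Ighd, the constant segment of IgD, a class found mainly on naive B cells, was at 0.147 to 0.871 FPKM in WT and 0.383 to 0.572 FPKM in Chi3l1 ko. Its 4 values in Stat3 ko were 4.48, 180, 60.8 and 0.390 FPKM, so Stat3 ko 4 was as low as WT. The counts behind the highest values were 6166 in Stat3 ko 2 and 2424 in Stat3 ko 3, against 142 in Stat3 ko 1 and 5 to 37 in the other 9 libraries. For each 100 Ighm counts there were 73.8 and 47.2 Ighd counts in Stat3 ko 2 and 3, 10.5 in Stat3 ko 1, and 1.31 to 6.67 elsewhere. The ratio of counts is followed here from library to library and does not compare the levels of the 2 segments.

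The IgG segments Ighg1, Ighg2b, Ighg2c and Ighg3 encode the main classes of circulating antibody. Ighg1 was at 0.734, 5.19, 1.2 and 0.625 FPKM in WT 1 to 4, at 7.96, 318, 31.1 and 0.858 FPKM in Stat3 ko 1 to 4, and at 2.31, 1.41, 0.580 and 1.30 FPKM in Chi3l1 ko 1 to 4. Stat3 ko 2 held 14902 of the 17725 Ighg1 counts of all libraries, and Stat3 ko 4 lay within the WT range. Ighg2b was highest in Stat3 ko 3, at 50.9 FPKM, with 36.6 in Stat3 ko 2, 8.15 in Stat3 ko 1 and 0.287 to 5.99 elsewhere. The order of these classes thus differed between the 2 libraries with B cell markers. Ighg2b and Ighg2c are 86.45% identical, and Ighg2c was likewise highest in Stat3 ko 2 and 3, at 13.4 and 11.0 FPKM, with 0 to 2.67 elsewhere.

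Ighg3 and Ighe were almost confined to Stat3 ko 2 and 3. Ighg3 held 588 and 668 counts there, 22 in Chi3l1 ko 2, 16 in Stat3 ko 1 and 0 to 5 in the other 8 libraries. Ighe, the segment of IgE, the class bound by mast cells, held 467 and 73 counts there and 0 to 3 elsewhere. In the 5 libraries where Ighe had no count, the depth allows a share of up to 0.149% to 0.331% of heavy chain constant counts, the limit that 3 counts set.

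Igha encodes the constant region of IgA, the class of milk and other secretions. Its level was 26.6, 168, 29.6 and 12.8 FPKM in WT 1 to 4. In Stat3 ko 1 to 4 it was 389, 77.2, 62.4 and 16.2 FPKM, and in Chi3l1 ko 1 to 4 it was 17.7, 11.6, 7.78 and 56.1 FPKM. The groups overlapped throughout: WT 2 exceeded 3 of the 4 Stat3 ko libraries, and Stat3 ko 4 was below 3 of the 4 WT libraries. Unlike Ighd and the IgG segments, Igha was highest in Stat3 ko 1, the library with the highest adipocyte marker sum, and not in Stat3 ko 2 or 3.

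As a share of heavy chain constant counts, Igha took 76.6%, 87.3%, 69.8% and 60.1% in WT 1 to 4. It took 88.4%, 10.3%, 21% and 41.1% in Stat3 ko 1 to 4, and 64.6%, 34.0%, 45.6% and 83.5% in Chi3l1 ko 1 to 4. Igha was thus the largest class by counts in all WT libraries, in Stat3 ko 1 and in Chi3l1 ko 1 and 4. By FPKM, which allows for the different lengths of the segments, it was above Ighm in those 7 libraries, and below it in the other 5. The exact 95% binomial (Clopper-Pearson) interval, which covers counting error only, was 87.9% to 88.8% in Stat3 ko 1 and 9.95% to 10.6% in Stat3 ko 2, and the widest of any library was 42.4% to 49.0%, in Chi3l1 ko 3.

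The 4 IgG segments together took 6.88%, 6.21%, 7.40% and 7.56% of heavy chain constant counts in WT 1 to 4. Stat3 ko 2 and 3 stood apart, at 48.5% (95% interval 47.9% to 49.0%) and 33.2% (32.5% to 33.9%), while Stat3 ko 1 and 4, at 4.0% and 4.37%, were below every WT library. Chi3l1 ko 1 was at 11.6% (10.1% to 13.1%) and Chi3l1 ko 2 to 4 at 5.94%, 6.17% and 5.91%. Ighm took 16.2%, 6.13%, 22% and 31.1% in WT, 6.87%, 23%, 30.8% and 53.9% in Stat3 ko, and 22.3%, 59.1%, 46.2% and 10.2% in Chi3l1 ko. In each group the library with the most immunoglobulin counts outside Stat3 ko 2 and 3, namely WT 2, Stat3 ko 1 and Chi3l1 ko 4, had the lowest share of Ighm and the highest of Igha. Ighd took 17.0% and 14.6% in Stat3 ko 2 and 3 and at most 1.98% elsewhere.

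**Figure D2:**
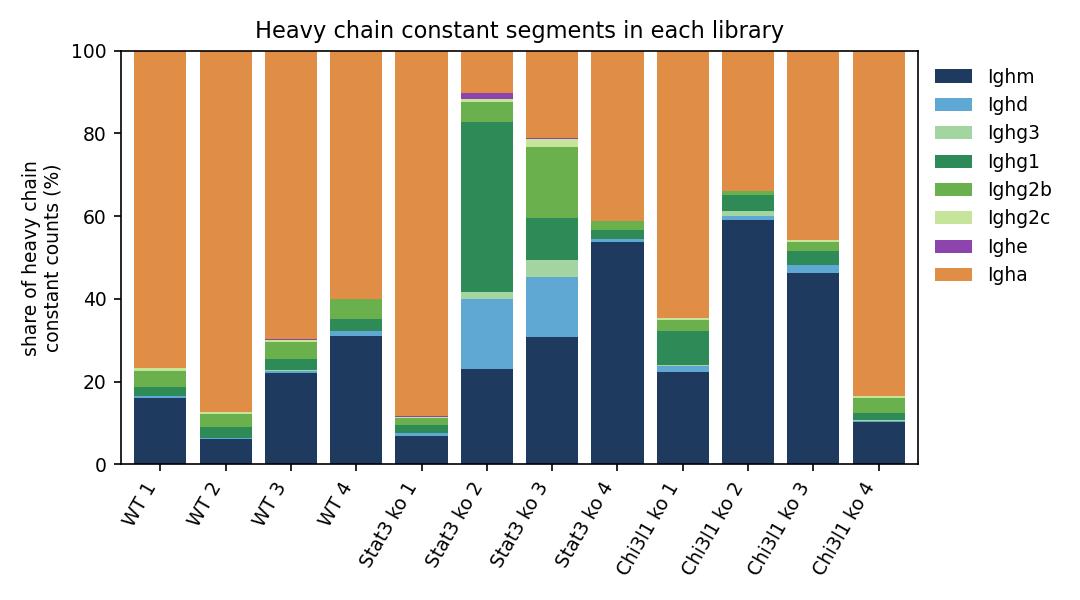
Heavy chain constant segments as a share of all heavy chain constant counts (y axis, 0 to 100%) in each of the 12 libraries (x axis), stacked in the order of the segments along the locus. Igha fills 60.1% to 87.3% of each WT bar and 88.4% of Stat3 ko 1, while IgG segments and Ighd widen in Stat3 ko 2 and 3.

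These shares were compared between genotypes by exact permutation, two-sided, where 4 libraries against 4 cannot give a p under 0.0286, and no difference passed. The mean share of Igha was 73.4% ± 11.5, 40.2% ± 34.6 and 56.9% ± 21.8 for WT, Stat3 ko and Chi3l1 ko (SD over 4 libraries, exact permutation p = 0.143 for Stat3 ko against WT and 0.257 for Chi3l1 ko against WT). IgG took 7.01% ± 0.609, 22.5% ± 22 and 7.40% ± 2.78, and the exact permutation p was 0.429 for Stat3 ko against WT and 1 for Chi3l1 ko against WT. Ighm took 18.8% ± 10.5, 28.6% ± 19.6 and 34.4% ± 22.2, with exact permutation p = 0.40 and 0.257. Over the 12 tests of 4 shares in 3 comparisons, the adjusted exact permutation p was 0.549 to 1. Without Stat3 ko 2 and 3, the mean IgG share of Stat3 ko lay 2.83 percentage points below WT, where with them it lay 15.5 percentage points above.

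Of the light chain constant segments, Igkc, the only one of the kappa locus, was at 125, 765, 131 and 59.4 FPKM in WT 1 to 4. In Stat3 ko 1 to 4 it was at 1860, 2052, 994 and 85.8 FPKM, and in Chi3l1 ko 1 to 4 at 76.4, 49.6, 38.1 and 284 FPKM. Stat3 ko 1 to 3 were above all other libraries, and Stat3 ko 4 lay between WT 4 and WT 1. The lambda segments Iglc1, Iglc2 and Iglc3 were far lower. Iglc2 was at 0.457, 7.38, 0.516 and 0.854 FPKM in WT, 8.04, 70.6, 36.3 and 1.12 FPKM in Stat3 ko, and 0.986, 0.222, 0.492 and 0.824 FPKM in Chi3l1 ko, so every Stat3 ko library was above every Chi3l1 ko library. Iglc3 ranged from 0 to 2.18 FPKM and Iglc1 from 0 to 0.598 FPKM in WT and Chi3l1 ko, and they reached 49.2 and 17.7 FPKM in Stat3 ko 2.

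Lambda segments took 0.588% to 2.42% of light chain constant counts in WT, 0.841%, 6.31%, 5.46% and 2.60% in Stat3 ko 1 to 4, and 0.701% to 3.12% in Chi3l1 ko. The means were 1.25% ± 0.866, 3.8% ± 2.53 and 2.17% ± 1.08 (SD, n = 4), and the exact permutation p was 0.114 for Stat3 ko against WT and 0.229 for Chi3l1 ko against WT. Iglc2 and Iglc3 are 94.32% identical, so the division of lambda counts between them is uncertain.

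Igha and Igkc counts kept nearly the same ratio in most libraries. For each 100 Igkc counts there were 107, 110, 113 and 108 Igha counts in WT 1 to 4, and 116, 118, 102 and 99.1 in Chi3l1 ko 1 to 4. In Stat3 ko 1 and 4 the ratio was 105 and 94.8, whereas it was 18.9 in Stat3 ko 2 and 31.5 in Stat3 ko 3. Igkc itself varied between 404 and 16499 counts over the 10 libraries with a ratio of 94.8 to 118.

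The plasma cell gene Jchain, whose product links IgA and IgM units into polymers, was at 9.16, 61.2, 8.91 and 4.34 FPKM in WT 1 to 4, at 185, 115, 49.7 and 7.0 FPKM in Stat3 ko 1 to 4, and at 6.46, 3.72, 2.57 and 20.6 FPKM in Chi3l1 ko 1 to 4. It was highest in the same library of each group as Igha. Ms4a1, which encodes CD20, a surface protein of B cells that plasma cells lose, was at 25.5 and 10.4 FPKM in Stat3 ko 2 and 3, at 0.320 FPKM in Stat3 ko 1 and at 0 to 0.253 FPKM elsewhere. Stat3 ko 1 thus had the highest Igha and Jchain of all libraries with little Ms4a1, whereas Stat3 ko 2 and 3 had high Ighd, Ighg1 and Ms4a1 together. Of the defining B cell markers Ms4a1, Cd79a and Pax5, Ms4a1 was at 0 in WT 3, Stat3 ko 4 and Chi3l1 ko 3, and Cd79a and Pax5 were above 0 in all 12 libraries. The part of the number of B cells or plasma cells in the segment values was not tested.

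**Figure D3:**
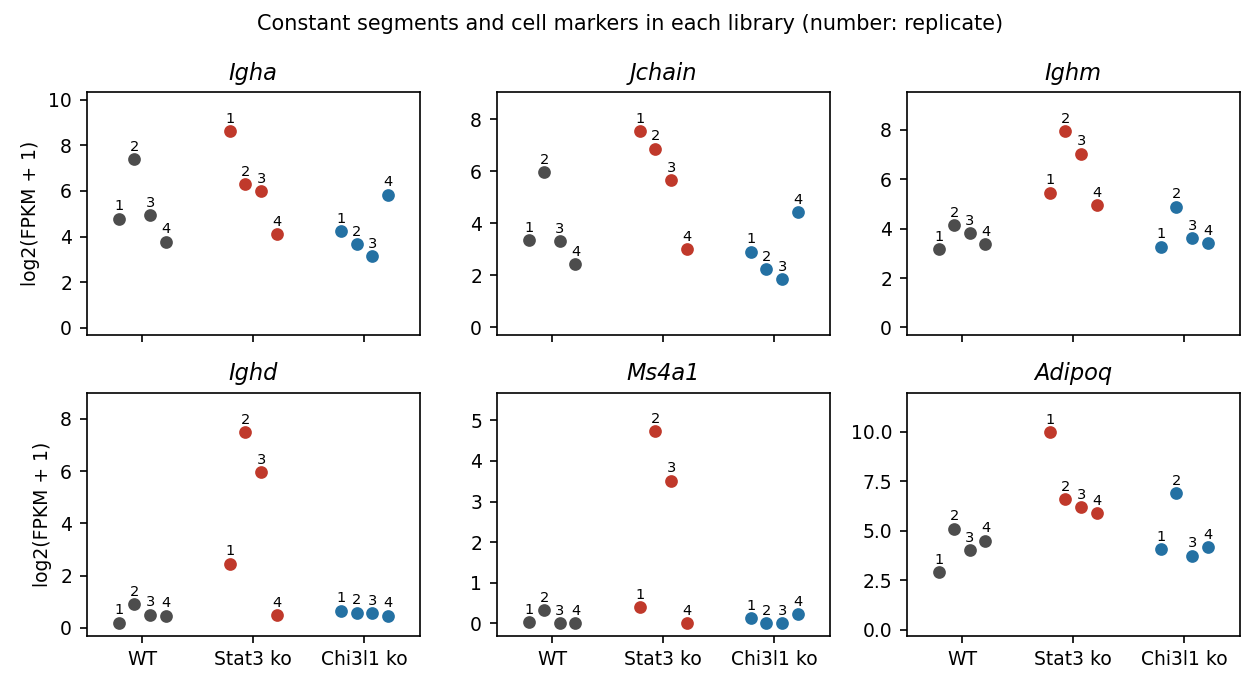
Level of 3 constant segments and 3 cell markers in each library, as log2(FPKM + 1) on the y axis, by group on the x axis; the number beside each point is the replicate. Igha and Jchain peak in Stat3 ko 1, Ighd and Ms4a1 in Stat3 ko 2 and 3, and the adipocyte hormone gene Adipoq in Stat3 ko 1.

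V segment usage was described within each locus, as the share of V counts held by each segment and the probability that 2 counts drawn at random come from the same segment. Only V members were counted, so V segments above 0 in 1 to 3 libraries are left out of the shares. Immunoglobulin genes that are not members, of all classes and loci, held 227 and 222 counts in Stat3 ko 2 and 3 and 1 to 34 elsewhere. Heavy chain V segments held few counts, from 21 in Chi3l1 ko 2 to 1160 in Stat3 ko 2, or 1.04 to 7.19 for each 100 heavy chain C counts. Kappa V segments held 147 in Chi3l1 ko 3 to 8505 in Stat3 ko 2, or 29.5 to 54.2 for each 100 Igkc counts. Summed FPKM of V over that of C, which allows for length, was 0.0601 to 0.506 in Igh and 0.422 to 0.775 in Igk. The lower heavy chain ratio was seen in each of the 12 libraries.

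A single segment, Ighv1-81, dominated the heavy chain in several libraries. It held 632 of 995 V counts in Stat3 ko 1 (63.5%, exact 95% interval 60.4% to 66.5%), 187 of 400 in WT 2 (46.8%, 41.8% to 51.8%) and 122 of 230 in Chi3l1 ko 4 (53.0%, 46.4% to 59.6%). These were the libraries with the highest Igha of their groups. It also led WT 1 and Stat3 ko 4 with 20 and 15 counts, and it had no count in Chi3l1 ko 2 and 3. The segment most like Ighv1-81 is Ighv1-85, at 92.88% identity.

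In Stat3 ko 2 and 3 no heavy chain segment held a comparable share. Ighv1-50 led Stat3 ko 2 with 229 of 1160 counts (19.7%, 17.5% to 22.2%), followed by Ighv1-63 with 178, and Ighv8-12 led Stat3 ko 3 with 131 of 742 (17.7%, 15.0% to 20.6%), followed by Ighv1-54 with 113. Ighv1-50 had 11 counts in Stat3 ko 3, and Ighv8-12 had 8 in Stat3 ko 2, so their leading segments differed. The same-segment probability was 41.4%, 9.14%, 8.93% and 13.1% in Stat3 ko 1 to 4. It was 12.6% to 23.9% in WT and 8.54% to 29.7% in Chi3l1 ko. Ighv2-2 led WT 3 and Chi3l1 ko 1, Ighv1-84 led WT 4, Ighv1-72 led Chi3l1 ko 2 and Ighv7-3 led Chi3l1 ko 3, each with 6 to 40 counts.

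In the kappa locus the same-segment probability was 5.17% to 10.7% in the 12 libraries. It was below that of the heavy chain locus in 11 of them, by little in Stat3 ko 2 (9.09% against 9.14%), and above it in Chi3l1 ko 1 (10.1% against 8.54%). Igkv1-110 led WT 1 and WT 3 with 97 of 496 and 88 of 497 counts. Its near copy Igkv1-117 led WT 2 with 377 of 2941, Stat3 ko 4 with 90 of 371 and Chi3l1 ko 2 with 26 of 181 counts. Most other libraries had a leader of their own: Igkv15-103 in WT 4, Igkv6-15 in Stat3 ko 1, Igkv10-96 in Stat3 ko 3, Igkv1-135 in Chi3l1 ko 3 and Igkv3-2 in Chi3l1 ko 4. Igkv10-96, another of the 5 kappa V segments with most counts, held 294, 745, 556 and 5 counts in Stat3 ko 1 to 4, against 14 to 188 in WT and 9 to 102 in Chi3l1 ko.

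Some kappa segments were very uneven between libraries. Igkv9-120 held 1805 of the 8505 kappa V counts of Stat3 ko 2 (21.2%, 20.4% to 22.1%), 168 counts in WT 2 and 0 to 33 in the other 10. Igkv8-24 held 1273 counts in Stat3 ko 2 and 0 to 36 elsewhere. Igkv2-109 held 152 of 548 counts in Chi3l1 ko 1 (27.7%, 24.0% to 31.7%), 336 counts in Stat3 ko 3 and 126 in Stat3 ko 1, while the other 3 Chi3l1 ko libraries had 14, 0 and 25. In the lambda locus Iglv1 held the most V counts in 10 libraries and tied with Iglv3 at 1 count each in Chi3l1 ko 3, whereas Iglv2 led Stat3 ko 3 with 166 of 345.

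**Figure D4:**
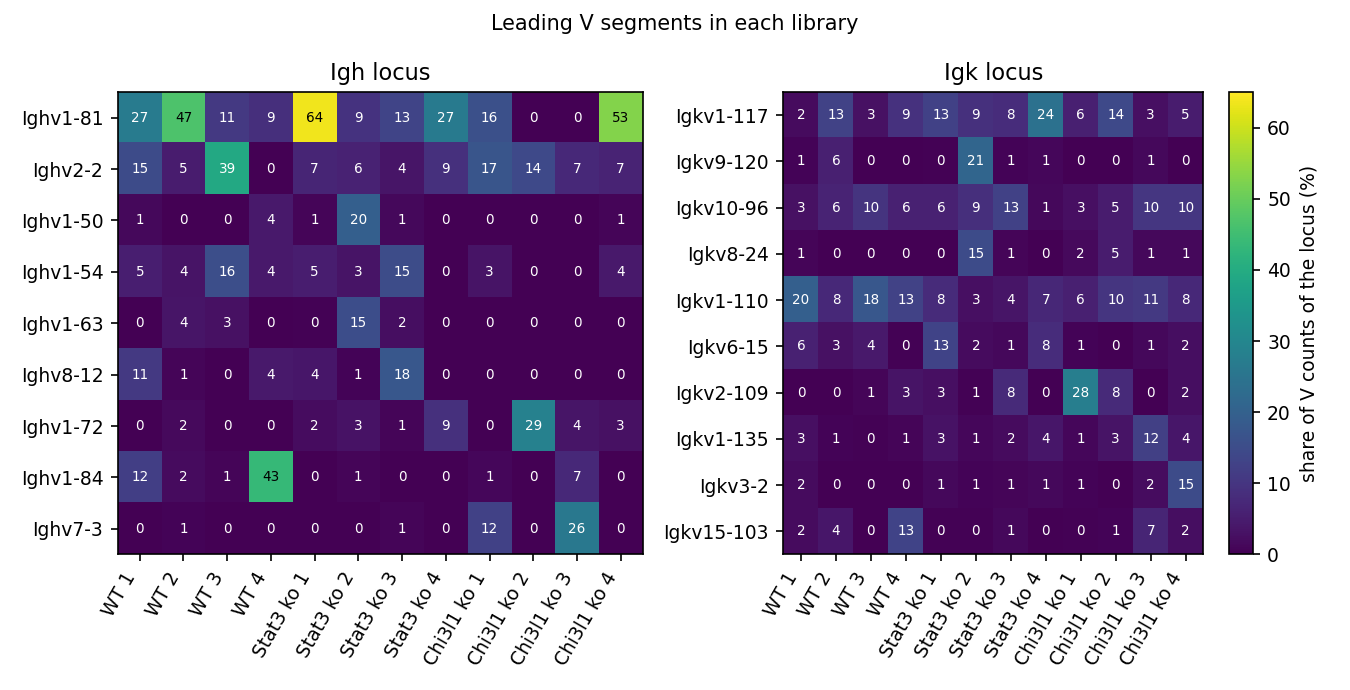
Share of the counts of V members of the heavy chain (left) and kappa (right) locus held by the leading V segments (rows) in each library (columns), in percent by colour and number. Ighv1-81 holds 63.5% in Stat3 ko 1, 53.0% in Chi3l1 ko 4 and 46.8% in WT 2; several columns with few counts, such as WT 4 (23) and Chi3l1 ko 2 (21) in the heavy chain, show high shares that rest on 10 counts or fewer.

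J segments and the single D member carried few counts. Of the 4 heavy chain J segments, Ighj4 held 209 counts over all libraries, Ighj3 93, Ighj2 73 and Ighj1 43. In the kappa locus Igkj5 held 179, Igkj4 155, Igkj2 96, Igkj3 92 and Igkj1 50. Igkj3, the segment without the motif, thus held more counts than Igkj1, which has the same length. Of these J counts most were in Stat3 ko, for example 165 of 209 for Ighj4 and 165 of 179 for Igkj5, while Ighj1 had 23 of 43 there. The D segment Ighd4-1, ctaactgggac at chr12:113430528-113430538 on the minus strand, is 11 bases long and held 18 counts in all. Iglj3p held counts in Stat3 ko 1 to 3 (2, 10 and 7) and Chi3l1 ko 2 (2). Reads from unspliced or unrearranged transcripts and from joined V regions cannot be told apart in these counts.

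Differences between genotypes were tested by limma on log2(FPKM + 1) over the 13643 genes that reached 1 FPKM in 4 or more libraries. A difference counts as called where its p, adjusted by Benjamini-Hochberg over these genes, was under 0.05. The filter kept 74 of the 136 members: 8 C, 1 D, 10 J and 55 V segments. The other 62, among them Ighd, Ighg3, Ighe and Iglc1, were not tested, and since a member with low values could pass through Stat3 ko libraries alone, the counts below describe the tested members and support no direction.

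In Stat3 ko against WT, 7 of the 74 tested members were called higher (9.46%) and 0 lower, where 5.61% of all tested genes were called higher and 8.39% lower. The median log2 difference was 1.73 over the tested members and -0.02 over all tested genes, and 69 of the 74 members had a positive difference. Every Stat3 ko library was above every WT library for 7 of the 136 members (5.15%), and below for 0, where 8.47% of the 24359 genes above 0 FPKM in at least 4 libraries were so placed above and 7.5% below. A segment can become a member through Stat3 ko alone, as Igkv11-125 did (0 FPKM in all WT and Chi3l1 ko libraries). Its place among the 7 was fixed by the rule, and the count supports no direction. All 7 calls were absent without Stat3 ko 2 and 3, when 40 members could be tested and 4 had an unadjusted p under 0.05 in limma. Of the 13187 genes of that fit, 399 were called higher and 582 lower. Without Stat3 ko 4, the library with low immunoglobulin, 44 of 73 members were called, where 1438 of 13470 genes were called higher and 1780 lower. Without any 1 of WT 1, WT 3, WT 4, Stat3 ko 1, Stat3 ko 2, Stat3 ko 3 and Chi3l1 ko 1, 2 to 4 members were called. In those fits 159 to 958 of all tested genes were called higher and 410 to 1415 lower. On the recovered counts edgeR called 12 of 55 members and DESeq2 33 of the 101 with an adjusted p, all higher, where edgeR called 10% of its genes higher and 7.97% lower, and DESeq2 14.4% higher and 9.01% lower.

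Ighm was higher in Stat3 ko than in WT by 2.72 ± 0.60 (SE, limma adjusted p = 0.0169). Leaving out WT 1 gave 2.56 (adjusted p = 0.0591) and leaving out WT 4 gave 2.63 (adjusted p = 0.0512). Without Stat3 ko 2 and 3 its difference was 1.58 (adjusted p = 0.0596). Igkv17-127 held 21, 84, 89 and 14 counts in Stat3 ko 1 to 4, 3, 0, 0 and 1 in WT and 0, 4, 0 and 3 in Chi3l1 ko. All Stat3 ko libraries were above all others. It reached the 1 FPKM of the filter only in the 4 Stat3 ko libraries (at most 0.504 FPKM elsewhere), so it was tested only because it was high there, and the difference to WT was 2.63 ± 0.44 (limma adjusted p = 0.00488). Its near copy Igkv17-121, with 452 counts in Stat3 ko 3 and 0 in Stat3 ko 4, differed by 2.74 ± 0.94 (adjusted p = 0.0714).

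Igkv14-111 held 210, 140, 133 and 46 counts in Stat3 ko, 22, 32, 18 and 3 in WT and 18, 7, 5 and 24 in Chi3l1 ko, again without overlap, and differed from WT by 2.49 ± 0.52 (adjusted p = 0.0135). Igkv14-111 was called whichever library was left out, in 12 fits. Igkv17-127 was called in the 8 fits that could test it. It could not be tested when any Stat3 ko library was left out, so its dependence on those libraries is not known. Without Stat3 ko 2 and 3 together, Igkv14-111 differed by 2.34 (adjusted p = 0.0641) and Igkv17-127 was not tested. Igkv3-12 (2.14 ± 0.56, adjusted p = 0.0305), Igkv1-135 (2.42 ± 0.65, adjusted p = 0.0326) and Igkj5 (3.67 ± 1.06, adjusted p = 0.0426) had groups that overlapped, and their calls ended without any of 3, 5 and 9 single libraries. Igkv1-135 differed by 2.14 (limma adjusted p = 0.113) and Igkj5 by 2.48 (adjusted p = 0.162) without Stat3 ko 2 and 3, when Igkv3-12 and Ighd4-1 were not tested. Ighd4-1 (2.98 ± 0.80, adjusted p = 0.0339) rests on 15 counts against 3, and its call ended without any of 7 libraries.

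Of the 8 tested constant segments, Ighm alone was called in this comparison. Igkc differed by 2.19 ± 1.08 (SE, limma adjusted p = 0.174), Ighg1 by 3.03 ± 1.21 (adjusted p = 0.105), Ighg2b by 2.12 ± 0.89 (adjusted p = 0.121), Ighg2c by 1.75 ± 0.67 (adjusted p = 0.0948), Iglc2 by 2.64 ± 0.95 (adjusted p = 0.0796) and Iglc3 by 2.57 ± 0.81 (adjusted p = 0.0561). Without Stat3 ko 4 the adjusted p of these 6 was 0.00508 to 0.0232. Ighg1 differed by 0.71 (adjusted p = 0.462), Ighg2b by 0.41 (adjusted p = 0.69) and Igkc by 1.27 (adjusted p = 0.506) without Stat3 ko 2 and 3, when Ighg2c, Iglc2 and Iglc3 were not tested. Leaving out Stat3 ko 2 alone moved Ighg1 to 1.71. Igha differed by 1.02 ± 0.98 (limma adjusted p = 0.484), by 0.23 without Stat3 ko 1, by 0.54 without WT 4, by 1.75 without WT 2, by 1.73 without Stat3 ko 4, and by -0.18 without the libraries above 2% mitochondrial counts, among them Stat3 ko 1 and 2. Ighv1-81 differed by 2.01 ± 1.26 (adjusted p = 0.278) and Igkv9-120, carried by Stat3 ko 2, by 1.93 ± 1.46 (adjusted p = 0.368).

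In Chi3l1 ko against WT, limma called 0 of the 74 tested members, where 0% of all tested genes were called higher and 0.00733% lower. Of the members, 2 had an unadjusted p under 0.05, 19 had a positive difference, and their median difference was -0.50 against 0.00 for all tested genes. Without WT 2 the median of the 62 tested members was 0.02. Every Chi3l1 ko library was above every WT library for 0 of the 136 members and below for 1, Igkv3-5 (0 FPKM in Chi3l1 ko and 0.117 to 1.37 FPKM in WT, named after its values were seen), where 0.981% of genes above 0 FPKM in at least 4 libraries were so placed above and 1.38% below. edgeR called 0 of 55 members (0% of its genes higher and 0.00608% lower) and DESeq2 1 of 129 (0% higher and 0.0193% lower), Igkv4-57-1, which was lower and held 165 counts in WT 2, 18 in WT 1, 1 in WT 3 and 0 in WT 4 and all Chi3l1 ko libraries. Igha differed by -1.01 ± 0.98, Igkc by -1.04 ± 1.08 and Ighm by 0.17 ± 0.60 (SE, limma adjusted p = 0.9998 for each).

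**Figure D5:**
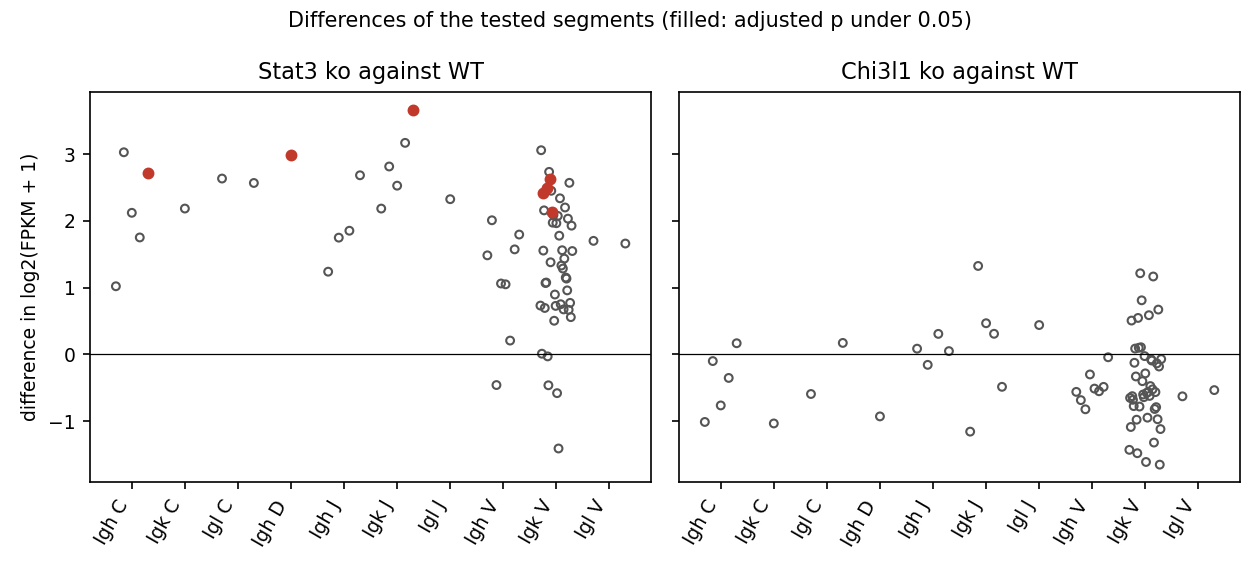
Difference in log2(FPKM + 1) (y axis) of the 74 tested members by locus and segment class (x axis), for Stat3 ko against WT (left) and Chi3l1 ko against WT (right), 1 point per segment, filled where limma's adjusted p was under 0.05. Of the 74 points, 69 are above 0 on the left and 19 on the right; both panels use the same WT libraries.

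Stat3 ko and Chi3l1 ko were also compared directly, with the same Stat3 ko libraries as above. Here 15 of the 74 tested members were called higher in Stat3 ko (20.3%) and 0 lower, where 5.19% of all tested genes were called higher and 8% lower. The median difference was 1.94 over the members and -0.02 over all genes, and every Stat3 ko library was above every Chi3l1 ko library for 20 of the 136 members (14.7%), and below for 0, where 6.64% of genes above 0 FPKM in at least 4 libraries were so placed above and 6.49% below. Igkv11-125, a member through Stat3 ko alone, is again among the 20, and this count too supports no direction. Without Stat3 ko 2 and 3, 0 members were called by limma and 7 had an unadjusted p under 0.05, where 394 of 13187 genes were called higher and 573 lower. Without Stat3 ko 4, 47 of 73 members were called, where 1206 of 13470 genes were called higher and 1647 lower. Without any 1 of WT 1, WT 3, Stat3 ko 1 to 3 and the 4 Chi3l1 ko libraries, 3 to 9 members were called. In those fits 176 to 857 of all tested genes were called higher and 432 to 1232 lower. On counts, edgeR called 18 of 55 members and DESeq2 52 of 107, all higher, where edgeR called 7.8% of its genes higher and 7.3% lower, and DESeq2 12.6% higher and 8.24% lower.

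The members with the lowest adjusted p were Igkv17-127 (2.53 ± 0.44, SE, limma adjusted p = 0.00564), Igkv14-111 (2.82 ± 0.52, adjusted p = 0.00765), Ighd4-1 (3.92 ± 0.80, adjusted p = 0.0126) and Ighm (2.55 ± 0.60, adjusted p = 0.0211). Igkj1 followed at 3.34 ± 0.82 (adjusted p = 0.0252), with 2, 19, 18 and 2 counts in Stat3 ko and 0 in all Chi3l1 ko libraries. Igkv1-117 differed by 3.71 ± 0.95 (adjusted p = 0.0288), Igkj5 by 4.15 ± 1.06 (adjusted p = 0.0289) and Igkv4-68 by 2.34 ± 0.60 (adjusted p = 0.0290). The first 3 of these 8 calls held in each fit with 1 library left out in which they could be tested, 8 fits for Igkv17-127 and 12 each for Igkv14-111 and Ighd4-1. Yet Ighd4-1, of 11 bases, rests on 1, 8, 4 and 2 counts in Stat3 ko and 0 in all Chi3l1 ko libraries. Neither edgeR nor DESeq2 gave an adjusted p for Ighd4-1. The 8 fits of Igkv17-127 all kept every Stat3 ko library, since it could not be tested otherwise. It reached the 1 FPKM of the filter only in Stat3 ko, so here too it was tested only because it was high there. Ighm was not called without Chi3l1 ko 1, 3 or 4, nor Igkj1 without these or Stat3 ko 2. Igkv1-117, Igkj5 and Igkv4-68 lost their calls without any of 5, 6 and 5 single libraries. Without Stat3 ko 2 and 3 together none of the 8 was called. The limma adjusted p was then 0.05025 for Igkv14-111, 0.0790 for Ighm, 0.129 for Igkj1, 0.116 for Igkv1-117 and 0.128 for Igkj5. Igkv17-127, Ighd4-1 and Igkv4-68 were not tested in that fit.

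The authors' deposited table for Stat3 ko against WT, which lists genes with an unadjusted p under 0.05, holds 65 members, 64 of them higher in Stat3 ko. Of these, 38 are higher and 1 lower at the authors' adjusted p under 0.05. In the authors' deposited table the log2 fold change of Ighm is 3.23, of Ighd 7.05, of Ighg1 5.50 and of Igkv17-127 5.68, and Igha is absent from the list. The 1 member lower there is Igkv4-61, at -3.44. The authors' deposited table for Chi3l1 ko against WT lists 12 members, 2 of them higher, and 0 pass the authors' adjusted p of 0.05. The share of all genes that these lists hold in each direction is not given here. The member counts therefore cannot be set against the other genes.

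Genes that go with immunoglobulin production were read from the same fits in 10 lists. Of the 14 B cell markers 6 could be tested, and in Stat3 ko against WT the inhibitory coreceptor gene Cd22 (2.26 ± 0.66, SE, limma adjusted p = 0.0443) and Fcrla (1.79 ± 0.54, adjusted p = 0.0477) were called higher. Of 10 tested plasma cell genes, 1 was called higher and 3 lower. Irf4, a transcription factor that drives plasma cell formation, rose by 1.60 ± 0.37 (adjusted p = 0.0212). Xbp1, the transcription factor of the secretory programme, fell by 1.55 on the log2 scale (SE 0.15, adjusted p = 0.000179), from 267 to 328 FPKM in WT to 87.9 to 139 FPKM in Stat3 ko, and the secretory pathway genes Fkbp11 and Derl3 fell by 0.91 and 0.68. The other tested genes of this list were not called. Among them Jchain, Mzb1 and Pou2af1 were higher by 2.01, 2.24 and 2.41 (limma adjusted p = 0.183, 0.0603 and 0.103). Sdc1, Txndc5 and Prdm1 differed by -0.32, -0.17 and 0.04. Which cells held the Xbp1, Fkbp11 and Derl3 RNA was not tested. With Stat3 ko 2 and 3 left out, Xbp1 fell by 1.40 (adjusted p = 0.00425) and Derl3 by 0.82 (adjusted p = 0.0428), while Irf4 (1.23, adjusted p = 0.0631) and Fkbp11 (-0.90, adjusted p = 0.0679) were not called, and Cd22 and Fcrla could not be tested. In that fit Jchain differed by 1.51 and Mzb1 by 0.93 (limma adjusted p = 0.421 and 0.240).

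Of the receptors and transporters of antibody, 1 of 7 tested was called. Fcgrt, the heavy chain of the neonatal Fc receptor, rose by 1.63 ± 0.46 (SE, limma adjusted p = 0.0387), and was highest in Stat3 ko 1 at 156 FPKM, the library with the highest adipocyte marker sum. Its difference was 2.19 without Stat3 ko 2 and 3 (adjusted p = 0.0402). Pigr, the polymeric immunoglobulin receptor, was at 118 to 185 FPKM in WT, 41.0, 138, 131 and 221 FPKM in Stat3 ko 1 to 4 and 126 to 204 FPKM in Chi3l1 ko, so its lowest value was in the library with the highest Igha. That library also had the lowest sum of 6 luminal epithelial markers. The sums were 1039, 1112, 2199 and 2373 FPKM in Stat3 ko 1 to 4 and 1809 to 2796 FPKM in WT and Chi3l1 ko. The part of the epithelium in the Pigr values was not tested. Fcmr, the IgM Fc receptor, was at 50.4 and 22.1 FPKM in Stat3 ko 2 and 3 and 0.0610 to 0.760 elsewhere.

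Of the cytokines and homing genes linked to isotypes, 4 were tested and Tgfb1, which favours switching to IgA, was called higher, by 0.55 ± 0.15 (SE, limma adjusted p = 0.0363), and by 0.38 without Stat3 ko 2 and 3 (adjusted p = 0.122). Ccl28 and Ccr10, a chemokine and its receptor that guide IgA plasma cells, were at most 0.895 and 3.43 FPKM in any library. None of the 7 genes of V(D)J recombination and the surrogate light chain could be tested: Rag2 was at 0 in all 12 libraries and Rag1 at 0 to 0.159 FPKM, while Vpreb3 was highest in Stat3 ko 2 (14 FPKM) and Vpreb1 stayed at 0.0436 to 0.486 FPKM. Of 7 germinal centre genes 2 were tested and 0 called against WT. S1pr2 and Bcl6, the members of that list with the highest levels, were at 4.87 to 15.1 and 1.91 to 8.03 FPKM over the 12 libraries.

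Of the other cell types, 3 of 10 tested T cell markers were called higher in Stat3 ko against WT (Cd2, Cd8a and Cd8b1, by 1.80, 1.54 and 1.98), and their summed level was 312 and 182 FPKM in Stat3 ko 2 and 3 against 18.3 to 40.6 FPKM in WT and Chi3l1 ko. Without these 2 libraries the differences were 0.73, 0.71 and 1.04, and none was called (limma adjusted p = 0.101, 0.167 and 0.0747). Of 3 tested lymph node and follicle genes 0 were called against WT. Ltb and Cxcl13, a cytokine and a chemokine of follicles, were at 152 and 72.6 FPKM in Stat3 ko 2 and 71.4 and 43.5 FPKM in Stat3 ko 3, against at most 15.6 and 4.74 FPKM elsewhere. Of 6 adipocyte markers, Fabp4, Cidec and Plin1 were called higher by 3.31, 2.91 and 3.28, and of 6 luminal epithelial markers Elf5 fell by 1.77. With Stat3 ko 2 and 3 left out, Elf5 fell by 1.76 (limma adjusted p = 0.0111), and Cidec (3.54) and Fabp4 (3.67) had an adjusted p of 0.0677 and 0.0803 and Plin1 one of 0.0732. In Chi3l1 ko against WT, 0 genes of the 10 lists were called. The part of these cell types in the immunoglobulin differences was not tested.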

How the data were processed

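RNA of 12 hyperplastic mammary glands was sequenced from NEBNext Ultra II libraries, per the labels' protocols. Trimmomatic, STAR, HTSeq, edgeR, limma and the mouse builds mm10 and GRCm38 appear in the submitters' processing notes, which give no version and no role. FPKM for 54532 genes, with gene length and biotype, were deposited by the authors. The authors' deposited comparison tables hold raw counts, log2 fold changes and p-values of genes with an unadjusted p-value under 0.05. They also hold a signal, which the authors made by dividing counts by a size factor per library and which was not used here.

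FPKM times gene length gave whole counts within 0.001 for all values. All 55832 deposited counts compared were equal to the recovered ones, and 0 differed. Whether counting used strand is not given in the sources used here.

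limma 3.58.1 with an intensity trend (R 4.3.3) was fitted to log2(FPKM + 1) of all 12 libraries with 1 mean per group, two-sided, and p-values were adjusted by Benjamini-Hochberg over 13643 genes. Fold changes on this scale understate those of low genes. Shares of constant counts were compared by exact permutation (scipy 1.17.1). Depth was 16217143 to 22607123 counts, and intervals cover counting error only. Alternatives were a pseudocount of 0.1, 2 other filters, median-of-ratios scaling, array weights, only the compared groups, edgeR 4.0.16, DESeq2 1.42.0, FPKM shares, leaving out libraries, and V segments without near copies. Leaving out Stat3 ko 2 and 3 was added after seeing the data. The limma fit and the permutation test were tested on simulated data.

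All 136 members had the same coordinates in GENCODE M21, whose transcripts gave the sequences, and identity was computed with edlib 1.3.9.post1. Members and gene lists were chosen with earlier results of these data known. The named genes are every C, J and D member, the 5 V members of highest mean counts of each locus, scaled to depth, and any leading a library, up to 8 called members per comparison, and the called genes of each list or otherwise 2 of its highest. Igkv17-121, Igkv4-57-1, Igkv4-61, Epcam, Jchain, Ms4a1, Cd79a, Pax5, Pigr, Fcmr, Ccl28, Ccr10, Rag1 and Rag2 were chosen after their values were seen. Figures used matplotlib 3.10.9.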

Additional observations from a re-analysis of the deposited data

Results flagged for a closer look

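In each group of 4 libraries the gap between the highest or lowest library and its nearest neighbour was set against the range of the group, by Dixon's test at 95%. Of 97 groups of values examined, 24 held a library that stood apart by this measure, where chance gives about 1 in 20 groups of normally distributed values. FPKM values are skewed, so that share is only a rough guide here. In 2 of the 24, Ighd4-1 in WT and Ighe in Chi3l1 ko, the other 3 libraries were at 0, and any value above 0 in the fourth stands apart.

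WT 2 stood above the other WT libraries in 12 of these, among them its immunoglobulin share of all counts, 0.115%. Its levels were 5.19 FPKM for Ighg1, 5.99 FPKM for Ighg2b, 168 FPKM for Igha, 765 FPKM for Igkc and 7.38 FPKM for the lambda segment Iglc2. The shorter segments were at 12.2 FPKM for Ighd4-1, 10.6 FPKM for Igkj5, 9.41 FPKM for Igkj1, 41.7 FPKM for Igkv1-117, 2.73 FPKM for Igkv3-4 and 3.62 FPKM for Ighv8-8.

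Among Stat3 ko libraries, Stat3 ko 1 stood above the others in Igha, at 389 FPKM, and in the probability that 2 heavy chain V counts came from the same segment, 41.4%. Stat3 ko 2 stood above the others in Ighg1, at 318 FPKM, and in Ighe, at 16.3 FPKM.

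Among Chi3l1 ko libraries, Chi3l1 ko 1 stood apart in its IgG share of heavy chain constant counts, 11.6%, in the same-segment probability of kappa V counts, 10.1%, and, as the lowest, in Iglc3, at 0.445 FPKM. Chi3l1 ko 2 stood above the others in Ighm, at 28.6 FPKM, and in Ighg3, at 0.396 FPKM. Chi3l1 ko 4 stood above the others in Igkc, at 284 FPKM, in Igkv6-15, at 3.88 FPKM, and in Ighe, at 0.0353 FPKM, a value that is 1 count.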

How the results depend on the processing

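No paired analysis was possible because the sample names carry no replicate numbers shared between groups. The cause of the changes below was not tested, except where fewer libraries or genes entered.

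For Stat3 ko against WT the 7 called segments became 3 with no filter on low values, 2 with only the groups compared in the fit, 12 with edgeR, 33 with DESeq2, 1 without the libraries over 2% mitochondrial counts and 0 without Stat3 ko 2 and 3. Over all genes, 446 of 31268 were called higher with no filter, 148 of 13643 with only the groups compared and 1644 of 16446 with edgeR. DESeq2 called 2730 of 18999 higher. Without the libraries over 2% mitochondrial counts 553 of 13032 were called higher, and without Stat3 ko 2 and 3 399 of 13187. Leaving out 1 library gave 2 to 44, where 159 to 1438 of all tested genes were called higher. The fit with 44, without Stat3 ko 4, called 1438 of all 13470 genes higher, against 766 of 13643 in the main fit. For Chi3l1 ko against WT the 0 became 1 with DESeq2, which called 6 of 31119 genes lower, and was 0 in all 12 fits with 1 library left out. For Stat3 ko against Chi3l1 ko the 15 became 4 with no filter, 8 at a mean of at least 5 FPKM, 5 with only the groups compared, 18 with edgeR, 52 with DESeq2, 1 without the libraries over 2% mitochondrial counts and 0 without Stat3 ko 2 and 3. Over all genes, 430 of 31268 were called higher with no filter, 328 of 8249 at that mean and 166 of 13643 with only the groups compared. With edgeR 1282 of 16446 were called higher, and with DESeq2 2463 of 19601. Without the libraries over 2% mitochondrial counts 662 of 13032 were called higher, and without Stat3 ko 2 and 3 394 of 13187. Leaving out 1 library gave 3 to 47, where 176 to 1206 of all tested genes were called higher. The fit with 47, also without Stat3 ko 4, called 1206 of all 13470 genes higher, against 708 of 13643 in the main fit.

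Igha turned to -0.18 in Stat3 ko against WT without the libraries over 2% mitochondrial counts (limma adjusted p = 0.95). Differences in shares of constant counts are in percentage points. For IgG in Chi3l1 ko against WT the difference was -0.0022 from FPKM and -1.0 to 0.883 with 1 library left out. For IgM in Stat3 ko against Chi3l1 ko it was 16.1 without the libraries over 2% mitochondrial counts and -14.2 to 2.42 with 1 library left out. Without Stat3 ko 2 and 3 the IgG difference was -2.83 to WT and -3.21 to Chi3l1 ko, and to Chi3l1 ko the IgA difference was 7.79 and the lambda difference -0.45. Among V segments without a copy at 95% identity, the mean same-segment probability of Chi3l1 ko was 27.1% in Igh and 9.94% in Igk.

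The named segments kept their direction and their side of the threshold in 288 of 412 comparisons with 1 library left out. Segments not called in the main fit count as kept there where they stayed uncalled. A call was lost in 106 of the 412 and gained in 18.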
